A study of Mus musculus with 8 samples.

Results

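The data described here show how the response of macrophages to LPS changed when the kinase Tpl2 was missing. For each gene the quantity of interest is the interaction, which is the LPS response of Tpl2-deficient cells minus the LPS response of wild-type cells on the log2 scale. All 8 arrays of the series entered, 2 in each of 4 groups taken from the array titles, and all 18193 genes with a value were tested. The cells were mouse macrophages grown from bone marrow for 7 to 10 days in 10 ng/mL of macrophage colony-stimulating factor, and their total RNA was hybridised to Affymetrix arrays. The 4 groups were Tpl2 WT cells left unstimulated, Tpl2 WT cells given LPS from Escherichia coli at 1 μg/mL, Tpl2 KO cells left unstimulated and Tpl2 KO cells given the same LPS. The labels do not give the time in LPS for these arrays, the age or strain of the mice, or how the Tpl2 gene was disrupted. Both arrays of every group are described as biological replicates, but whether they came from separate animals or cultures is not said. The p-values therefore rest on the spread within these pairs of arrays alone, and that spread may be technical.

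LPS, a component of the outer membrane of gram-negative bacteria, is sensed by Toll-like receptor 4. The receptor switches on NF-kB, the MAP kinase cascades and, through type I interferon, a second wave of interferon-stimulated genes. Tpl2, encoded by Map3k8, is the MAP3 kinase that links the receptor to MEK and ERK: it is held inactive by the NF-kB precursor Nfkb1 and is freed when that precursor is degraded. ERK in turn acts on serum response factor partners and on the AP-1 proteins of the Fos and Jun families, and is shut off again by dual-specificity phosphatases (Dusp genes) and Sprouty proteins. In macrophages Tpl2 is known for promoting Il10 and Il1b and for restraining Ifnb1 and Il12b.

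The arrays of a group correlated at r = 0.997 in 3 groups and at 0.994 in LPS-treated Tpl2-deficient cells, whose median SD between arrays was 0.129 against 0.0649 to 0.0662 elsewhere. The fit assumes one spread per gene in all groups. With a separate variance factor for each group, 1453 genes passed in place of 1563. The files hold no detection calls, so a group mean under the median of its arrays (6.48 to 6.53) is pointed out and was not shown to be above background. Of 15 measured macrophage markers, 0 lay under the median in any group, and their mean level was 13.0 to 13.2. The mean levels of the 9 lists of other cell types were 5.55 to 8.13. Not all of their markers lay under the median. Depending on the group, 2 or 3 of 10 osteoclast, 3 or 4 of 9 dendritic cell and 4 or 5 of 10 stromal markers did. Of 6 erythroid markers 5 did in every group. Osteoclast markers had the highest mean levels of the 9 lists, 7.71 to 8.13. In RNA from whole cultures, fewer cells of a type and less RNA per cell cannot be told apart. Map3k8 itself read 9.27 and 9.28 in unstimulated and 11.01 and 10.91 in LPS-treated wild-type cells, against 8.32 and 8.23 and then 9.83 and 10.09 in Tpl2-deficient cells. Its LPS response was 1.68 ± 0.11 (SE) in both genotypes, and 1 probe set measures it, whose place relative to the disruption is not given.

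The LPS responses of the genotypes differed for 1563 of 18193 genes, 8.59% of those tested (limma, Benjamini-Hochberg adjusted p under 0.05). The interaction was higher in Tpl2-deficient cells, meaning a larger rise or a smaller fall, for 1040 genes (5.72%). It was lower, meaning a smaller rise or a deeper fall, for 523 genes (2.87%). Among the 461 genes whose responses differed at least 2-fold, 232 were higher and 229 lower. The share of lower calls depended on scaling: it was 33.5% with the values as deposited, 47.7% (535 higher, 487 lower) when arrays were centred on their spike-in controls, and 43.7% (745 higher, 579 lower) when quantile normalization was repeated. The deposited arrays still differed in the spread of their values. Interquartile ranges were 3.48 and 3.54 in unstimulated and 3.16 and 3.14 in LPS-treated wild-type cells. Without Tpl2 they were 3.40 and 3.35 and then 3.08 and 3.26, an interaction of 0.16. What this difference in spread does to the calls was not tested. The count of calls also moved with single arrays. Leaving out 1 unstimulated array of either genotype or 1 wild-type LPS array left 756 to 940 calls, and leaving out 1 of the Tpl2-deficient LPS arrays gave 2565 or 2489. In every one of these 8 fits, 633 of the 1563 genes passed.

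Each called gene fell into 1 of 5 response classes, defined by which genotype's own LPS response passed the same threshold. A response was lost when it passed in wild type and not in Tpl2-deficient cells, which held for 348 genes, 1.91% of those tested. It was weakened when it passed in both genotypes in the same direction but was smaller without Tpl2 (529 genes, 2.91%). A reversed response passed in both genotypes in opposite directions (121 genes, 0.665%). Strengthened responses were larger without Tpl2 in the same direction, whether a higher rise or a deeper fall (329 genes, 1.81%), and gained responses passed only in Tpl2-deficient cells (236 genes, 1.3%). As background, the LPS response passed for 52.2% of all genes in wild type (21.3% up, 30.9% down) and for 41.8% in Tpl2-deficient cells (16% up, 25.8% down). With single arrays left out, calls held least often in the lost class and most often in the reversed class.

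**Figure D1:**
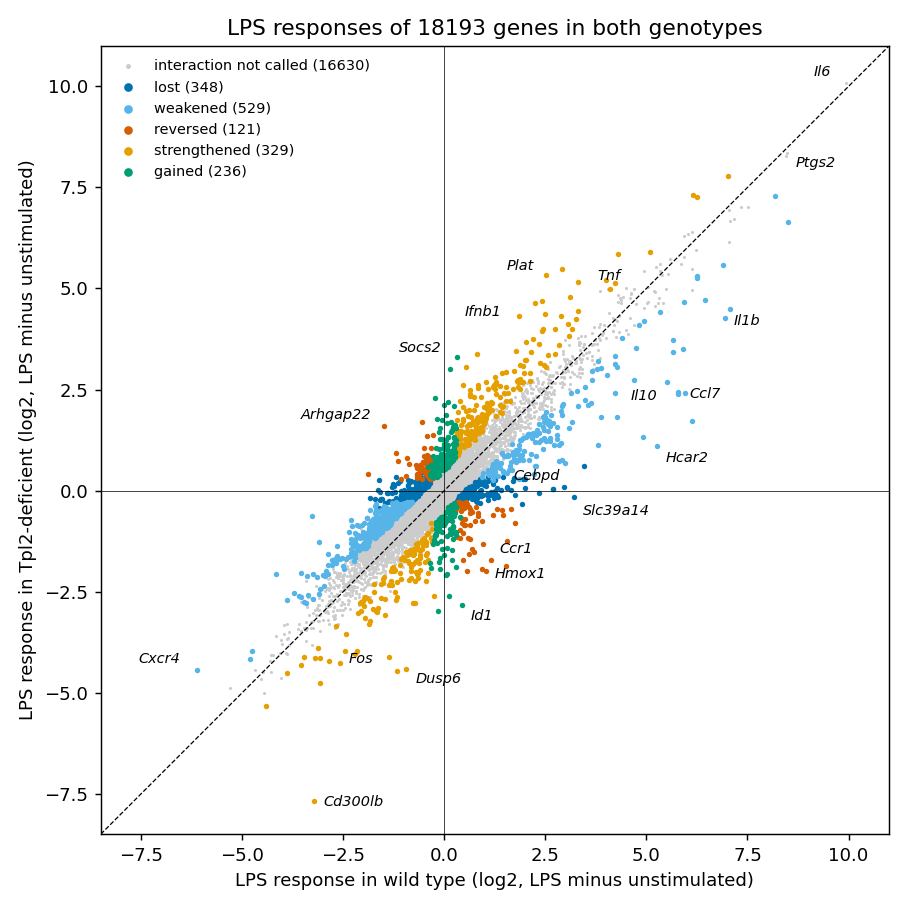
LPS response (log2, LPS minus unstimulated) in wild-type macrophages on the horizontal axis and in Tpl2-deficient macrophages on the vertical axis, 1 point per gene, coloured by response class; on the dashed line both responses are equal. Hcar2 (5.26 in wild type, 1.10 without Tpl2) lies far under the line, Cd300lb far below it among falls, Plat and Ifnb1 above it, and Il6 near it.

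The lost class held 97 rises and 251 falls of wild type, and the weakened class 158 rises and 371 falls. Falls made up 70.9% of the 877 lost or weakened responses, where the background was 59.2% falls among all called LPS responses of wild type. The share was at or under that background with spike-in centring (58.6%), with quantile normalization repeated (58.0%) and by the second probe set (52.3%). It ran from 52.0% without the second unstimulated Tpl2-deficient array to 71.5% without the second Tpl2-deficient LPS array, so an excess of falls rested on the processing. The strengthened class held 204 rises and 125 falls, an order that turned with spike-in centring (111 and 133) and without the second Tpl2-deficient LPS array (278 and 308). The gained class held 149 rises and 87 falls of Tpl2-deficient cells, or 90 and 95 with spike-in centring. The median size of a lost response went from 0.80 in wild type to 0.152 without Tpl2, and that of a weakened response from 1.66 to 0.842. Strengthened responses had a median size of 0.942 in wild type and 1.99 without Tpl2. The direction of these size differences is set by the class rule.

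**Figure D2:**
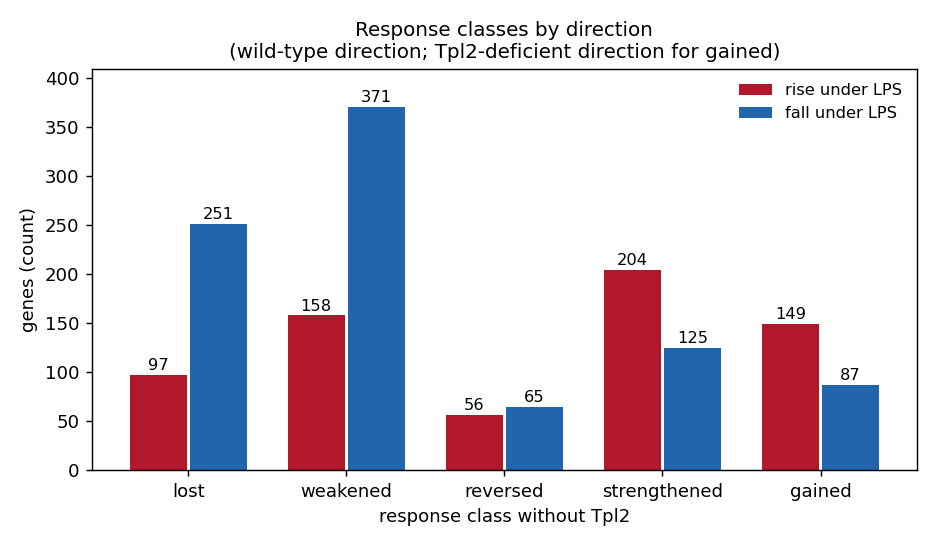
Number of genes per response class, split into rises (red) and falls (blue) under LPS, in the direction of wild type or, for gained responses, of Tpl2-deficient cells. The bars show 251 falls and 97 rises among lost responses, 371 and 158 among weakened, 125 and 204 among strengthened and 87 and 149 among gained ones; with spike-in centring the order turned for strengthened (133 falls, 111 rises) and gained responses (95 and 90), and for strengthened ones also without the second Tpl2-deficient LPS array (308 and 278).

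Most large LPS responses were either shown to be alike or could not be told apart. Of 994 genes that rose at least 2-fold in wild type, 303 (30.5%) were kept, meaning that the 95% interval of the interaction lay within a 1.5-fold change either way. Another 36 were lost, 156 weakened, 10 reversed and 91 strengthened, and 398 (40.0%) were undecided, with an interaction that did not pass and an interval wider than that. Of 2116 genes that fell at least 2-fold in wild type, 571 (27.0%) were kept, 50 were lost, 345 weakened, 5 reversed, 63 strengthened and 1082 (51.1%) undecided. Choosing genes by 1 genotype favours smaller values in the other. Chosen instead by a rise of at least 2-fold in Tpl2-deficient cells, 1081 genes held 96 weakened, 198 strengthened and 41 gained responses, and 314 that were kept.

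Il6, a pro-inflammatory cytokine, marked the kept end. It read 3.65 and 3.75 unstimulated and 13.65 and 13.65 with LPS in wild type, and 3.95 and 3.80 and then 13.98 and 13.93 without Tpl2, with an interaction of 0.14 ± 0.14 (adjusted p = 0.627). The neutrophil chemoattractant Cxcl2 was lower without Tpl2 in both states and rose by 4.75 and 4.61, an interaction of -0.14 ± 0.14. Tnf, the tumour necrosis factor gene, rose by 4.69 and 4.98, and its interaction of 0.30 ± 0.16 did not pass. Ptgs2, the inducible cyclooxygenase, rose by 8.47 and 8.36 by its brightest probe set, an interaction of -0.11 ± 0.24, but by its second probe set the interaction was -2.07 and passed (adjusted p = 8.05e-05). The interaction of Nos2, the inducible nitric oxide synthase, was -0.44 ± 0.33 and did not pass. Further kept responses, picked after their values were seen, were those of Acod1, which makes itaconate (5.03 in both genotypes), the NF-kB inhibitor Tnfaip3 (3.57 and 3.44), the cytokine signalling inhibitor Socs1 (3.85 and 3.73) and the chemokine Ccl3 (3.72 and 3.73).

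Lost rises were led by Slc39a14, a zinc and iron importer. It read 8.16 and 8.03 unstimulated and 11.21 and 11.38 with LPS in wild type, while all 4 Tpl2-deficient arrays lay between 7.68 and 8.06. Wild-type LPS arrays stood apart from the other 6, and the rise of 9.19-fold in wild type became an interaction of -3.35 ± 0.18 (adjusted p = 2.59e-06). Its second probe set read -1.12. Cebpd, a transcription factor of the acute phase response, behaved in the same way: 10.85 and 10.88 rose to 13.24 and 13.17 in wild type, and Tpl2-deficient arrays read 10.77 and 10.60 before and 10.50 and 10.75 after LPS. Its interaction was -2.40 ± 0.16 (adjusted p = 1.02e-05), or -0.66 (adjusted p = 0.0349) by its second probe set. Csf3, the granulocyte growth factor, rose 6.47-fold in wild type, from 6.66 and 6.54 to 9.47 and 9.12, and stayed between 6.58 and 7.06 on all Tpl2-deficient arrays (interaction -2.66 ± 0.23).

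Other lost rises included surface and matrix genes and feedback regulators. Flrt3, a membrane protein of cell adhesion, rose by 2.96 in wild type and by 0.10 without Tpl2, where its levels lay under the array median. Tnc, an extracellular matrix glycoprotein, rose by 3.46 and 0.62 from levels under the median, and Sema4c, a semaphorin, by 2.69 and 0.05. Ier3, an early response gene of cell survival, rose 3.96-fold in wild type and read 9.83 and 10.05 before and 10.14 and 9.89 after LPS without Tpl2 (interaction -1.91 ± 0.18). Il4ra, the interleukin 4 receptor alpha chain, rose by 1.30 in wild type, against -0.11 without Tpl2. Cysltr1, a receptor for leukotrienes, rose by 1.19 against -0.11, and the chemerin receptor Cmklr1 by 1.07 against -0.23, although the interaction of Cmklr1 did not pass by its second probe set. Ccr3, a chemokine receptor, rose by 1.73 in wild type only, but all 4 of its group means lay under the array median.

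Zfp36, also called tristetraprolin, binds AU-rich elements of cytokine messages and speeds their decay. Its wild-type arrays went from 11.67 and 11.72 to 13.41 and 13.40 with LPS, and its Tpl2-deficient arrays from 11.65 and 11.60 to 11.88 and 11.83. Only the 2 wild-type LPS arrays were high, and the interaction was -1.48 ± 0.13 (adjusted p = 7.4e-05). Its promoter is shown because it holds a CArG box, the element bound by serum response factor, at bases 58 to 49 before the start (capitals). The stretch is RefSeq sequence of build GRCm38.p6, chr7:28379239-28379338 on the minus strand, written toward the gene. A match is a run of letters and does not show that the site is used. Zfp36 does not stand for its class in this respect. A CArG box was found before the start in 3 of the 289 lost genes with a promoter (1.04%), under the 1.43% of tested genes. The share by class was highest in gained genes, at 4.76%. These shares were not tested.
Zfp36: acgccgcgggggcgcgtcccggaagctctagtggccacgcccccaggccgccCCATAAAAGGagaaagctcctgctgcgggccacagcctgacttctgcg

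Lost falls outnumbered lost rises, but the interactions of the leading ones were smaller. Calhm2, a channel protein, fell from 9.75 and 9.78 to 8.21 and 8.09 in wild type and read 9.76 and 9.56 before and 9.96 and 9.87 after LPS without Tpl2, an interaction of 1.87 ± 0.15. Mrtfa, an actin-regulated partner of serum response factor, fell 3.55-fold in wild type, from 10.48 and 10.32 to 8.45 and 8.70. Without Tpl2 it read 10.38 and 10.25 and then 10.05 and 10.20, so the wild-type LPS arrays were the only low ones (interaction 1.63 ± 0.17, adjusted p = 0.000184). Fam53b (1.66), the splicing assembly factor Gemin2 (1.55) and the glycosyltransferase Galnt10 (1.54) had the next largest interactions of this kind.

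Weakened rises included cytokines and receptors that LPS induced strongly in wild type. Hcar2, the receptor for nicotinic acid and beta-hydroxybutyrate, was the third lowest in interaction of all genes. Its wild-type arrays read 6.59 and 6.50 unstimulated and 11.80 and 11.82 with LPS, and its Tpl2-deficient arrays 6.64 and 6.63 and then 7.63 and 7.83. The LPS groups did not overlap, the rise was 38.4-fold in wild type and 2.14-fold without Tpl2, and the interaction was -4.16 ± 0.15 (adjusted p = 3.23e-07).

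The neighbouring interleukin 1 genes were both weakened. Il1b, the secreted form, rose from 7.44 and 7.63 to 14.48 and 14.46 in wild type and from 7.50 and 7.37 to 11.81 and 11.60 without Tpl2, that is 122-fold against 19.3-fold (interaction -2.66 ± 0.16, adjusted p = 5.32e-06). Il1a rose from 5.67 and 5.35, under the array median, to 11.53 and 11.39 in wild type, and to 7.73 and 7.93 without Tpl2. Its interaction was -3.53 ± 0.18 (adjusted p = 2.48e-06). Both LPS-treated Tpl2-deficient arrays lay above the unstimulated arrays and below the wild-type LPS arrays for both genes. Il10, which damps macrophage activation, rose by 5.51 in wild type, from 6.04 and 6.08 to 11.53 and 11.62, and by 2.70 without Tpl2, from 6.21 and 6.09 to 8.89 and 8.81 (interaction -2.82 ± 0.14).

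Of the monocyte chemoattractants encoded side by side, 2 were weakened. Ccl7 rose by 5.79 in wild type, from 6.72 and 6.78 to 12.51 and 12.58, and by 2.38 without Tpl2, from 6.56 and 6.38 to 8.97 and 8.74 (interaction -3.41 ± 0.16). Ccl2 rose by 5.65 and 3.42, reading 12.90 and 12.98 in wild type and 10.44 and 10.72 without Tpl2 under LPS (interaction -2.24 ± 0.22, adjusted p = 0.00011). The neighbours Ccl12 (-0.31 ± 0.16) and Ccl8 (-0.03 ± 0.24), named after their values were seen, did not pass. Cxcl3, a neutrophil chemoattractant, was weakened by -1.33 ± 0.18, and Cxcl1 (-0.45 ± 0.18) did not pass. Without probe sets that may cross-hybridise, Cxcl1 was instead read by another probe set, at an interaction of 1.22 (adjusted p = 0.00185).

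Olr1, a receptor for oxidised lipoprotein, rose by 4.92 in wild type and by 1.32 without Tpl2, from levels under the array median, and reached 9.55 and 9.38 against 5.95 and 5.77. Marco rose by 2.98 and 0.69 (interaction -2.29 ± 0.21), Msr1 by 1.84 and 0.76 (-1.08 ± 0.14) and Gpr84, a receptor for medium-chain fatty acids, by 4.22 and 2.43 (-1.79 ± 0.15). Of 20 measured scavenger and metabolite receptors, 7 had a lower and 0 a higher interaction, which is 35% against 8.59% of all genes. Of the 7, 5 were weakened (these 4 and Hcar2), P2ry2 was reversed and P2ry6 was strengthened. The other 13 were not called. This list was chosen with earlier results of these data known. Other weakened rises were those of the costimulatory ligand Tnfsf4 (3.87 and 1.83), the phospholipase Pla2g4a that releases arachidonic acid (3.54 and 2.11), the protease inhibitor Timp1 (2.24 and 0.62) and the G1 cyclin Ccnd2 (5.90 and 3.51).

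Serpinb2, the intracellular inhibitor of plasminogen activators, rose from 6.03 and 6.06 to 11.94 and 11.71 in wild type and from 6.30 and 5.93 to 8.69 and 8.44 without Tpl2. The LPS groups were more than 3 log2 units apart, and the interaction was -3.33 ± 0.20 (adjusted p = 5.32e-06). Dusp1, a phosphatase that switches off p38 and JNK, rose by 2.26 in wild type and by 0.85 without Tpl2 (interaction -1.41 ± 0.16). Promoter stretches of both and of Il1a are shown for their matches to the AP-1 motif TGANTCA or the cyclic AMP response element TGACGTCA (capitals), since AP-1 and CREB are known to act after ERK. They are RefSeq sequence of GRCm38.p6, written toward the gene: Il1a at chr2:129309973-129310072 on the minus strand, Serpinb2 at chr1:107511273-107511372 on the plus strand (the first of its 2 entries) and Dusp1 at chr17:26508563-26508662 on the minus strand.
Il1a: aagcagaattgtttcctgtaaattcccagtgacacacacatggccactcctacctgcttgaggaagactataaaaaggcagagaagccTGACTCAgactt
Serpinb2: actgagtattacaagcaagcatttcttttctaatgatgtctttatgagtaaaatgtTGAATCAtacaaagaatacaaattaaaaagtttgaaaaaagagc
Dusp1: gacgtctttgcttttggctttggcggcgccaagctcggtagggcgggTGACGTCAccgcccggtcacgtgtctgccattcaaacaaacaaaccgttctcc

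Both strands of the 250 bases before the start were searched, and a gene counted once if any of its promoter entries matched. TGANTCA occurred in 21 of 177 genes with a promoter (11.9%) whose interaction was at least 2-fold lower. It occurred in 9 of 188 genes (4.79%) at least 2-fold higher and in 6.70% of the 14452 tested genes with a promoter in the RefSeq table. Counted per entry instead, it was in 6.75% of all 32851 promoters of that table. The cyclic AMP response element TGACGTCA was present in 3.95% and 3.19% of the same lower and higher genes against 2.50% of tested genes. The CArG box was present in 2.82% and 2.66% against 1.43%, and the NF-kB site in 15.3% and 12.2% against 10.1%. Not every motif searched was more frequent in the lower genes. A motif of ETS transcription factors was in 1.69% and 3.19% against 4.95% of tested genes, but in 7.96% of lost genes. An interferon response motif was in 3.95% and 3.72% against 3.13%, and a STAT factor motif in 1.69% and 0.532% against 1.18%. By class, TGANTCA was in 3.81% of lost, 5.8% of weakened and 5.43% of reversed genes, all under the share of tested genes, and in 6.79% of strengthened ones. It was in 0 of the 27 genes of the ERK-responsive list that have a promoter. These shares describe letters in this window, with no test, and the windows of genes that share a promoter overlap.

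The weakened falls numbered 371. The chemokine receptor Cxcr4, which holds cells in the bone marrow, fell from 12.89 and 12.91 to 6.74 and 6.81 in wild type and from 13.01 and 12.96 to 8.53 and 8.55 without Tpl2. Both falls were large, 69.9-fold and 21.8-fold, and the LPS groups did not overlap (interaction 1.68 ± 0.13, adjusted p = 3.28e-05). Cdc42ep3, an effector of the GTPase Cdc42, fell by 3.27 in wild type and by 0.63 without Tpl2 (interaction 2.64 ± 0.17). The ubiquitin ligase Rnf144b (interaction 2.09), N4bp2l1 (1.83), the succinate dehydrogenase assembly factor Sdhaf1 (1.58) and Gpr183, a receptor for oxysterols (1.51), followed. By a second probe set Gpr183, Rnf144b and N4bp2l1 did not pass.

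**Figure D3:**
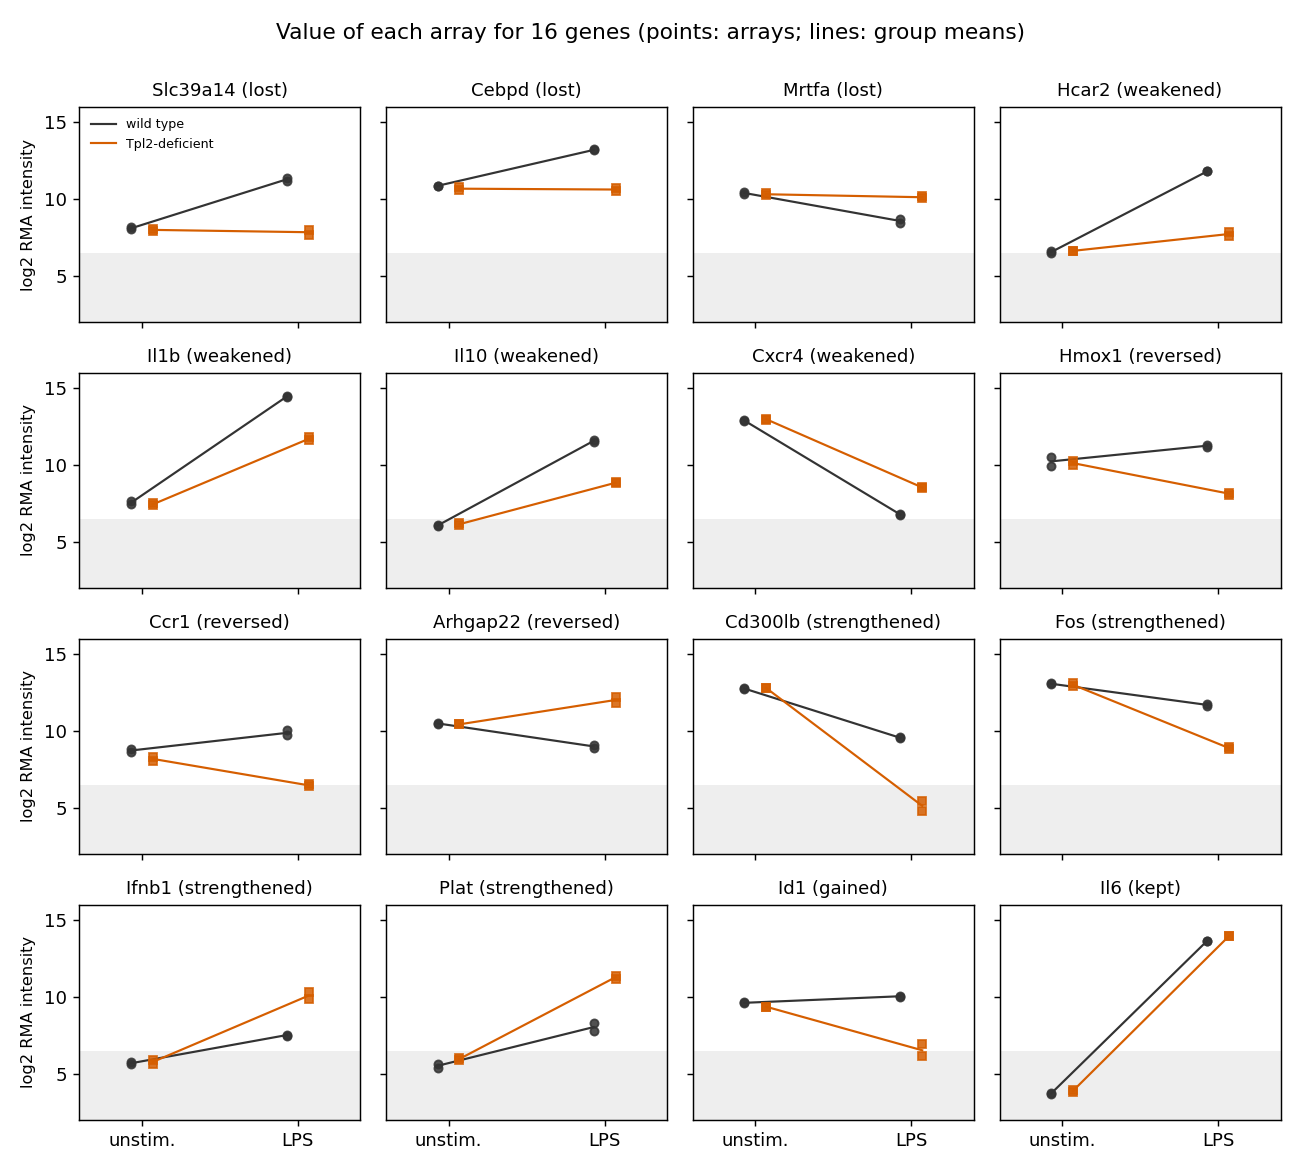
Log2 RMA intensity of each array for 16 genes, unstimulated and with LPS, with wild type as black circles and Tpl2-deficient cells as orange squares; lines join the means of the 2 arrays of a group, and grey marks levels under the array medians. For 15 of the genes the lines part under LPS, and for Il6 they stay together (13.65 and 13.65 against 13.98 and 13.93).

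Reversed responses had the largest share of big interactions, with 75 of 121 at least 2-fold. The class rule favours this, since responses of opposite direction add up in the interaction. Hmox1, the haem-degrading enzyme, rose from 9.97 and 10.51 to 11.33 and 11.19 in wild type. Without Tpl2 it fell from 9.98 and 10.28 to 8.21 and 8.07, so unstimulated groups overlapped and LPS groups lay on either side of them (interaction -3.01 ± 0.24, adjusted p = 2.89e-05). Ccr1, a receptor for Ccl3 and Ccl5, rose from 8.84 and 8.61 to 10.04 and 9.72 in wild type and fell from 8.33 and 8.04 to 6.52 and 6.39, a mean under the array median, without Tpl2 (interaction -2.88 ± 0.20). Maf, a transcription factor that drives Il10, rose by 0.69 in wild type and fell by 1.45 without Tpl2, and Ifnar1, a chain of the type I interferon receptor, rose by 1.46 and fell by 0.61.

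Plaur, the urokinase receptor, rose from 10.05 and 10.10 to 11.86 and 11.79 in wild type and fell from 9.41 and 9.57 to 8.57 and 8.80 without Tpl2. All 4 Tpl2-deficient arrays were lower than all 4 wild-type arrays, and the interaction was -2.55 ± 0.16 (adjusted p = 5.5e-06). Its promoter is shown for the AP-1 motif at bases 69 to 63 before the start (capitals), from RefSeq, GRCm38.p6, chr7:24462353-24462452 on the plus strand.
Plaur: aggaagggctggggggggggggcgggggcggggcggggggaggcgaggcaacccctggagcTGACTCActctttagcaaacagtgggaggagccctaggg

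The immediate early transcription factor Egr1 rose by 0.56 in wild type, from 8.15 and 8.39 to 8.79 and 8.87. Without Tpl2 it started higher, at 9.16 and 9.01, and fell to 7.15 and 7.06 (interaction -2.54 ± 0.16, adjusted p = 6.49e-06). Ier2, another immediate early gene, rose by 0.72 and fell by 1.51. Flrt2, a relative of Flrt3, went from 8.85 and 8.67 to 10.33 and 10.29 in wild type and from 8.41 and 8.42 to 7.02 and 7.31 without Tpl2. Zfp658 (-3.40) and the probe set assigned to the small nucleolar RNA Snord89 (-2.87) also reversed, with the LPS level of Tpl2-deficient cells under the array median. Whether the latter probe set reads the small RNA itself was not checked.

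Falls of wild type became rises for 65 genes. Arhgap22, a GTPase activator for Rac, fell from 10.46 and 10.52 to 8.88 and 9.11 in wild type and rose from 10.43 and 10.43 to 11.83 and 12.21 without Tpl2, with all unstimulated arrays between the LPS groups (interaction 3.09 ± 0.19, adjusted p = 5.36e-06). Mylip, a ubiquitin ligase that removes the lipoprotein receptor and a target of LXR, fell by 1.90 and rose by 0.41 (2.30 ± 0.15). Ciita, the master regulator of MHC class II genes, fell by 0.43 and rose by 1.34 (1.77 ± 0.22), yet it was the single member of 12 measured MHC class II genes to pass. Ptger4, a prostaglandin E2 receptor, fell by 0.33 and rose by 1.06 (1.39 ± 0.15).

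Strengthened falls included the lowest interaction of all genes. Cd300lb, an activating immunoreceptor of myeloid cells, went from 12.79 and 12.73 to 9.57 and 9.52 in wild type and from 12.78 and 12.81 to 5.47 and 4.78 without Tpl2, which is under the array median. Unstimulated arrays were alike and LPS groups far apart, at an interaction of -4.46 ± 0.25 (adjusted p = 3.34e-06). Its relative Cd300lf was also strengthened (-0.88 ± 0.21), a call lost under 5 of 19 alternatives, while Cd300ld, named after its value was seen, was kept (-0.23 ± 0.15). Ptger2, another prostaglandin E2 receptor, fell from 9.69 and 9.84 to 8.63 and 8.56 in wild type and from 9.78 and 9.51 to 5.12 and 5.26 without Tpl2 (interaction -3.29 ± 0.17). Ptger2 and Ptger4 thus moved in opposite directions without Tpl2. Cyth4, an exchange factor for ARF GTPases, fell by 0.26 and 2.61.

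Genes known to follow ERK activity were among the strengthened falls. Fos, an AP-1 subunit, was lower with LPS in both genotypes, from 13.06 and 13.09 to 11.61 and 11.78 in wild type and from 13.12 and 12.90 to 8.94 and 8.82 without Tpl2. The unstimulated groups overlapped, and the fall was 2.60-fold in wild type and 17.4-fold without Tpl2 (interaction -2.74 ± 0.16, adjusted p = 4.97e-06). Dusp6, the phosphatase that ERK induces to switch itself off, fell 1.92-fold in wild type. Without Tpl2 it fell by 4.41 on the log2 scale, from 9.40 and 9.60 to 5.44 and 4.73, under the array median (interaction -3.47 ± 0.28). Tlr4, the LPS receptor itself, fell by 0.71 in wild type and by 2.25 without Tpl2 (interaction -1.53 ± 0.16), and the p38 kinase gene Mapk14 by 0.66 and 2.04 (interaction -1.37, but -0.43 and not passing by its second probe set).

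Strengthened rises were led by Plat, the tissue plasminogen activator. It read 5.66 and 5.36 unstimulated and 7.79 and 8.27 with LPS in wild type, and 5.88 and 6.03 and then 11.18 and 11.38 without Tpl2. Unstimulated levels lay under the array median, the LPS groups were about 3 log2 units apart, and the interaction was 2.80 ± 0.23 (adjusted p = 3.87e-05), or 0.94 (adjusted p = 0.0247) by its second probe set. Within the plasminogen system Plat, Plaur and Serpinb2 therefore fell into different classes, strengthened, reversed and weakened. The other activator gene, Plau, had an interaction of 0.15 and was not called. Of 18 measured plasminogen activators and extracellular proteases, 5 were lower, 1 was higher and 12 were not called (33.3% called against 8.59% of all genes). Gem, a small GTPase, rose by 2.92 and 5.48 from levels under the median, and Rras2, a Ras-related GTPase, by 2.24 and 4.64. Foxl2os, an antisense RNA on a probe set whose strand specificity was not checked, rose by 0.55 and 3.05.

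Ifnb1, the interferon beta gene, rose from 5.60 and 5.75, under the array median, to 7.48 and 7.54 in wild type and from 5.62 and 5.89 to 10.33 and 9.84 without Tpl2. The rise was 1.84 ± 0.16 in wild type and 4.33 ± 0.16 without Tpl2, and the interaction was 2.49 ± 0.22 (adjusted p = 6.5e-05). Its promoter stretch is shown for an NF-kB site at bases 116 to 107 before the start (capitals). The site lies within the enhancer that NF-kB, interferon regulatory factors and an AP-1 family dimer are known to share. An NF-kB site was in 10.9% of strengthened genes, near the 10.1% of tested genes. The promoter stretch is again written toward the gene. It is RefSeq sequence of GRCm38.p6, chr4:88522845-88522944 on the minus strand.
Ifnb1: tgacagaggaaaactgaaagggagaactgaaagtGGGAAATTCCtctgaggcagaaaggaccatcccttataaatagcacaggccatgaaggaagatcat

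Of the interleukin 12 family subunits, Ebi3, Il12a and Il12b rose further without Tpl2, while Il23a, under the array median in every group, had an interaction of -0.31 ± 0.14 that did not pass. Ebi3 read 12.75 and 12.75 with LPS in wild type and 13.96 and 13.83 without Tpl2, with rises of 1.52 and 2.94 (interaction 1.42 ± 0.15, adjusted p = 0.000161). Il12a rose by 2.35 and 3.63 (1.28 ± 0.22), from levels under the array median, as did Il12b. Il12b rose by 6.25 and 7.25, an interaction of 1.01 ± 0.25 (adjusted p = 0.0319) whose call was lost under 8 of 20 alternatives, with adjusted p between 0.00367 and 0.12 over them. The macrophage growth factor Csf1 (1.15 ± 0.20) and the costimulatory ligand Icosl (1.56 ± 0.25) were strengthened too, although Icosl did not pass by its second probe set.

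Gained responses were seen only where LPS passed in Tpl2-deficient cells and not in wild type, so they are the converse of the lost class. Id1, an inhibitor of basic helix-loop-helix transcription factors, read 9.65 and 9.57 before and 10.07 and 10.01 after LPS in wild type, and 9.36 and 9.36 and then 6.91 and 6.12 without Tpl2 (interaction -3.27 ± 0.28, adjusted p = 4.36e-05). Dusp4, a nuclear phosphatase of ERK, stayed between 9.52 and 9.68 on all wild-type arrays and fell from 8.98 and 9.25 to 6.17 and 6.84, a mean under the array median, without Tpl2 (-2.72 ± 0.26). The kinase gene Stk17b fell by 2.97, the lipid kinase Pik3cg by 1.88 and Fam111a, a protease of antiviral defence, by 2.09 without Tpl2, against changes of -0.15, 0.28 and 0.05 in wild type.

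Gained rises were led by Socs2, a feedback inhibitor of cytokine signalling. It read 6.48 and 6.60 before and 6.64 and 7.04 after LPS in wild type, and 6.30 and 5.98, under the array median, and then 9.51 and 9.35 without Tpl2 (interaction 2.99 ± 0.21, adjusted p = 1.38e-05). Efna2, a ligand of Eph receptors, rose by 3.01 without Tpl2 and by 0.14 in wild type (2.87 ± 0.21, or 0.76 by its second probe set). Tex15 rose by 2.30 against -0.23 from levels under the median. Ccr2, the receptor for Ccl2, was in the same class on the falling side (-0.71 ± 0.18, adjusted p = 0.0318), a call lost under 8 of 20 alternatives.

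Of the 29 pathway lists, the ERK-responsive genes had the largest share called. The lists and their members were chosen with earlier results of these data known. Shares called, for this and every other list, therefore describe the lists and are no independent evidence. Of 37 measured immediate early and feedback genes, 17 had a lower and 3 a higher interaction, which is 54.1% against 8.59% of all genes, and the median interaction was -0.37 against 0.01. Leaving out each array in turn gave 15 to 18 lower and 3 higher members. By the second probe set, which 20 members have, 3 were lower and 1 higher and the median was -0.098, and other lists then had larger shares called. The classes were mixed: 2 lost, 3 weakened, 6 reversed, 6 strengthened and 3 gained. Besides Dusp6, Fos, Dusp4 and Egr1, named members of the list outside the naming rule were the ERK inhibitor Spry2 (-2.19 ± 0.19), Phlda1 (-2.16 ± 0.18) and the AP-1 gene Fosl2 (-1.83 ± 0.24). The 3 higher members were Nr4a3, an orphan nuclear receptor (1.68 ± 0.18), Klf4 (1.23 ± 0.17) and Ier5 (1.07 ± 0.14). Jun (-0.26 ± 0.15), Junb (0.51 ± 0.16), Egr2 (-0.36 ± 0.15) and Myc (-0.31 ± 0.19) did not pass.

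Inflammatory cytokines split evenly, with 5 of 20 higher (Il12a, Il12b, Csf1, Ebi3 and Ltb) and 5 lower (Il1a, Il1b, Csf3, Il33 and Osm), 50.0% in all. Il33 lay under the array median in every group. Of 20 anti-inflammatory and feedback genes 6 were lower and 1, Socs2, was higher (35% against 8.59% of all genes). The lower ones were Il10, Zfp36, Il4ra, the interleukin 1 receptor signalling inhibitor Irak3 (-1.41 ± 0.21), the A20 partner Tnip1 (-0.99 ± 0.16) and Sbno2 (-0.90 ± 0.18). Of 12 regulators of AU-rich RNA, 4 were lower and 0 higher (33.3%). They were Zfp36, its relative Zfp36l2 (-1.68 ± 0.26), the ribonuclease Zc3h12a (-1.24 ± 0.18) and Zc3h12c (-0.91 ± 0.22). By the second probe set, which 10 members have, 0 passed: Zfp36l2 was at -0.01, Zc3h12a at -0.74 and Zc3h12c at -0.32, and Zfp36 has no second one.

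Of 33 chemokine ligands 1 was higher and 3 were lower (12.1% against 8.59% of all genes). The higher one, Cxcl11 (0.78 ± 0.19), lost its call under 9 of 20 alternatives, while its second probe set read 4.10 (adjusted p = 2.98e-06). Of 21 chemokine receptors, 3 were lower (Ccr1, Ccr3 and Ccr2) and 2 higher, 23.8% in all. The higher ones were Cxcr4 and Cxcr3 (0.79 ± 0.19), the latter lost under 9 of 19 alternatives. Of 12 receptors for lipid and complement chemoattractants, 4 were lower and 1 was higher (41.7%). Of 30 adhesion and cytoskeleton genes of migration, 2 were lower and 1 was higher (10%, near the share of all genes). Among the lower was Was, the actin regulator of the Wiskott-Aldrich syndrome (-1.05 ± 0.14).

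Transcription factors of macrophages were often called, 12 of 31 lower and 3 higher (48.4%), with 7 to 12 lower when single arrays were left out. After Id1, Cebpd and Maf came Fli1 (-1.51 ± 0.22), an ETS factor that fell by 2.46 in wild type and by 3.97 without Tpl2, and Ets2 (-1.46 ± 0.21), which rose by 3.62 and 2.16. Cebpa, which drives myeloid differentiation, fell by 4.42 in wild type and by 5.33 without Tpl2 (-0.90 ± 0.15). Nfe2l2, the regulator of the antioxidant response, reversed (-0.78 ± 0.14). Of 13 NRF2 targets 4 were lower and 0 higher (30.8% called, against 8.59% of all genes), and 4 were kept. The lower ones were Hmox1, the cystine transporter Slc7a11 (-1.15 ± 0.15), glutathione reductase Gsr (-0.99 ± 0.14) and Srxn1 (-0.69 ± 0.18). The call of Srxn1 was lost under 9 of 20 alternatives, among them the second probe set and the replicate block.

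**Figure D4:**
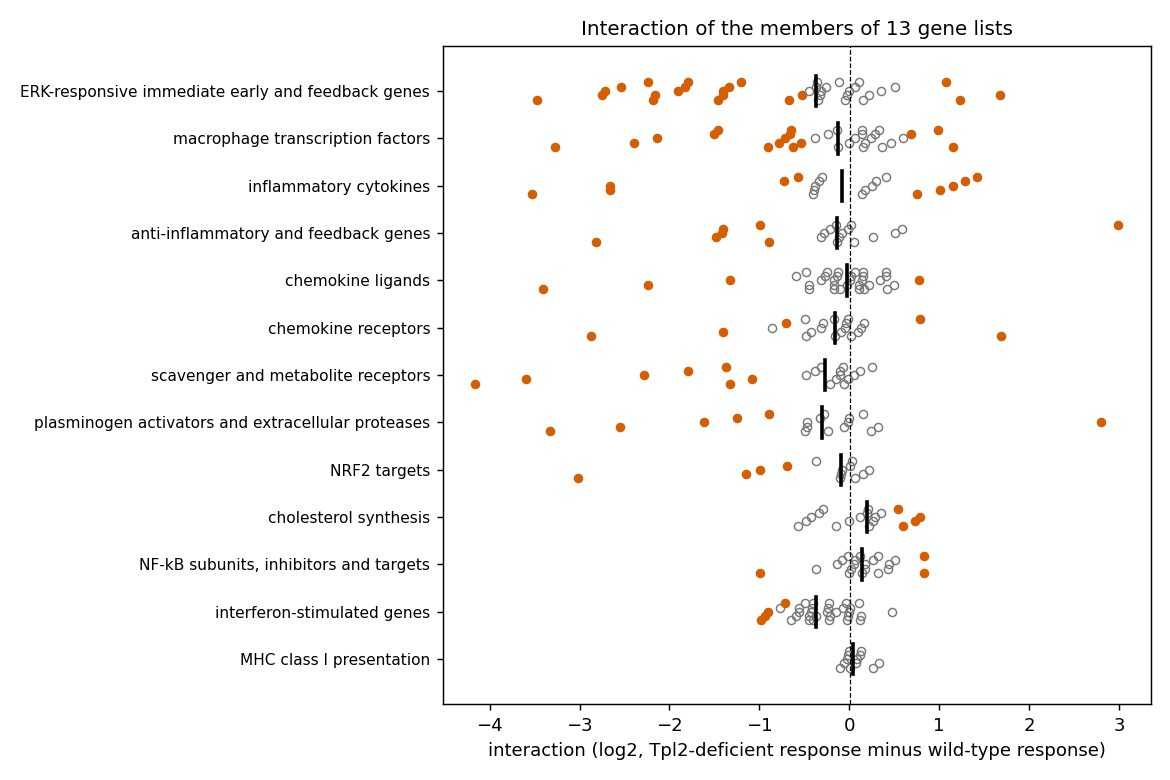
Interaction (log2, Tpl2-deficient response minus wild-type response) of every measured member of 13 gene lists, filled where the adjusted p was under 0.05 and open otherwise; black bars are list medians and the dashed line is the median of all 18193 genes. The ERK-responsive list has 17 filled points to the left and 3 to the right, and the MHC class I list has none filled.

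Of 21 NF-kB genes, 2 were higher (Gadd45b, 0.83 ± 0.14, and Traf1, 0.84 ± 0.17) and 1, Tnip1, was lower. That is 14.3% against 8.59% of all genes, and 7 were kept. Of 12 MHC class I presentation genes 0 were called by limma, 0 of them had an unadjusted p under 0.05, and 6 were kept. All 33 interferon-stimulated genes rose in both genotypes, and their median interaction was -0.37 against 0.01 for all genes. Of them 11 were kept, 4 were weakened (12.1%), 0 were higher and 9 more had an unadjusted p under 0.05. The 4, Cmpk2 (-0.98 ± 0.19), Oasl1 (-0.93 ± 0.21), Gbp2 (-0.90 ± 0.15) and Rsad2 (-0.72 ± 0.18), had genotype differences of 0.65 to 0.88 at rest, and smaller ones under LPS. Cmpk2 read 8.20 and 7.77 in unstimulated wild-type and 8.93 and 8.80 in unstimulated Tpl2-deficient cells, and 14.26 and 14.21 against 14.16 and 14.12 with LPS. Rsad2 was at 15.30 and 15.24 against 15.16 and 15.25 with LPS, where the groups overlapped, and its call was lost under 10 of 20 alternatives.

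The Tpl2 and MAP kinase list had 3 of 20 members lower and 2 higher (25% against 8.59% of all genes). Lower were Mapk14, Map2k3 (-0.80 ± 0.17) and Mapkapk3 (-0.62 ± 0.16), and higher were Ikbkb (0.94 ± 0.14) and Rps6ka5 (0.87 ± 0.24). By the second probe set Mapk14 (-0.43, adjusted p = 0.161) and Map2k3 (-0.41, adjusted p = 0.182) did not pass, and Rps6ka5 lost its call under 7 of 20 alternatives. The interaction of Ikbkb, the kinase that frees Tpl2 from its inhibitor, was -0.45 by its second probe set, where it did not pass. Of 22 genes of the Toll-like receptor pathway 4 were lower and 0 higher (18.2%). They were Tlr4, Tlr8 (-1.52 ± 0.27), Irak3 and the adaptor Tirap (-0.78 ± 0.13). Tlr1, Tlr6 and Myd88 were kept.

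Lipid genes moved both ways, with 40% of LXR targets called against 8.59% of all genes. Of 15 LXR targets 3 were higher, Mylip, the apoptotic cell receptor Mertk (0.89 ± 0.20) and the cholesterol exporter Abcg1 (0.86 ± 0.18), and 3 were lower, the exporter Abca1 (-0.79 ± 0.15), lipoprotein lipase Lpl (-0.76 ± 0.14) and Nr1h3, the gene of LXR alpha itself (-0.65 ± 0.16). Of 18 cholesterol synthesis genes 4 were higher (22.2% called), Mvd, Dhcr7, Pmvk and Ebp. Each was a smaller fall or a change to a rise (0.54 to 0.79). With spike-in centring 0 of these passed, and with quantile normalization repeated 1 was higher and 1 lower. Of 36 cell cycle genes 3 were lower and 0 higher (8.33%, near the 8.59% of all genes). They were Ccnd2 (-2.39 ± 0.36), Cdt1 (-0.82 ± 0.17) and Ccnd1, which fell by 1.44 without Tpl2 and by 0.05 in wild type. Of 8 reference genes 0 passed, and 0 had an unadjusted p under 0.05.

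In most called genes the genotypes differed more under LPS than at rest. Of the 1563 genes, 1394 had a larger genotype difference with LPS than without. Genotypes were called apart under LPS for 1329 of them and at rest for 36, where the background was 13.7% (8.01% higher and 5.73% lower without Tpl2) and 0.5% (0.154% higher and 0.346% lower) of all genes, and for 209 neither comparison passed by itself. The reversed class had 116 of 121 members called apart under LPS and 1 at rest, and the weakened class 432 and 16 of 529. Egr1 was higher by 0.81 at rest and lower by 1.73 under LPS in Tpl2-deficient cells. Treml1, a TREM family receptor that fell in both genotypes, was an exception of the other kind: it read 8.68 and 8.38 in wild-type and 10.44 and 10.28 in Tpl2-deficient cells at rest, and 6.64 and 7.13 against 7.65 and 7.25 with LPS (interaction -1.27 ± 0.25). The comparisons at rest and under LPS share no arrays, but both share arrays with the interaction. The share of all genes with a larger difference under LPS was not counted. The 1394 of 1563 can therefore not be called particular to the called genes. LPS-treated Tpl2-deficient arrays varied most (median SD 0.129).

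**Figure D5:**
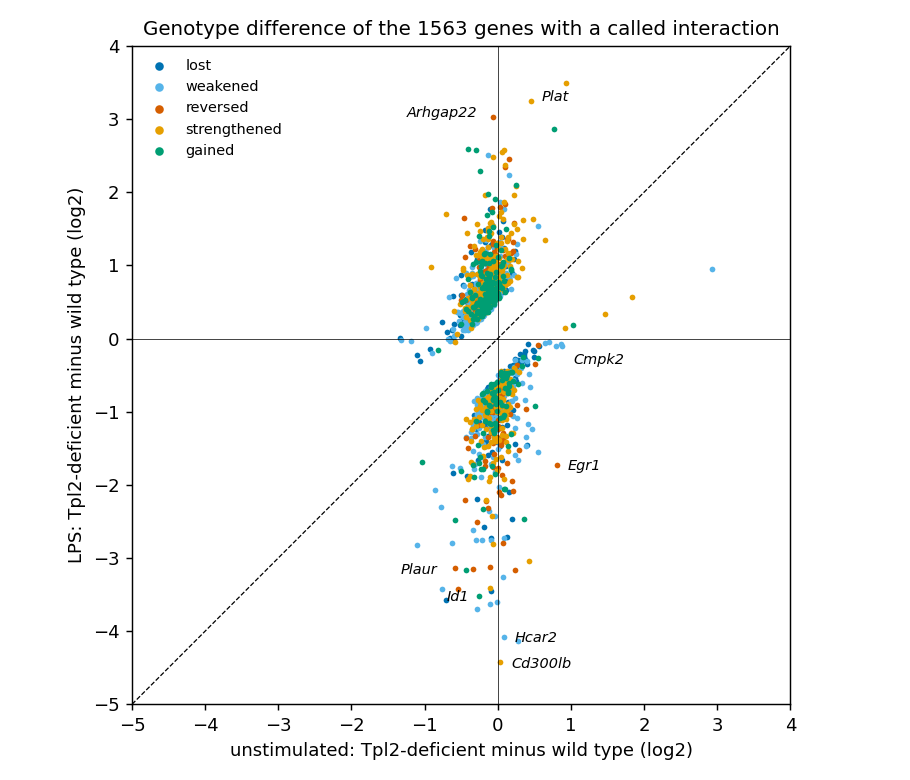
Genotype difference (log2, Tpl2-deficient minus wild type) of the 1563 called genes in unstimulated cells (horizontal) and LPS-treated cells (vertical), coloured by response class, with equal differences on the dashed line. Most points spread along the vertical axis near 0 at rest, such as Hcar2 (0.08 and -4.08) and Cd300lb (0.03 and -4.43), while Cmpk2 lies to the right (0.88 and -0.10).

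A second probe set of the same gene gave a separate reading of the same RNA. It existed for 892 called genes and gave the same sign of the interaction for 769 (86.2%), or for 602 of 649 (92.8%) where its level was above the array median. It also passed for 326 genes, all of them with the same sign. Its size often differed: beyond the cases above, the interaction was smaller by the second probe set for Ccr1 (-1.67), Cdc42ep3 (1.32), Ciita (1.06), Tnc (-1.82) and Fli1 (-0.99). It was larger for Ccnd1 (-2.26), Gadd45b (1.33), Rps6ka5 (1.58) and Slc7a11 (-1.85). Ccr2, Cdt1, Cmpk2, Mvd and Rsad2 did not pass by the second probe set, nor did C3ar1, Irf3, Kit, Ptger3, Ptx3, Trem1 and Wasf2. Ptx3 was at -0.16 by it, against -1.40. Reversed genes had the same sign most often (70 of 73) and weakened genes least often (249 of 301), a difference that was not tested. All 4 group means lay under the array medians for 57 of the 1563 genes, so expression was not shown in any group for them.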

How the data were processed

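Total RNA of 8 macrophage samples was hybridised to single-colour Affymetrix arrays. The deposited values are log2 intensities. RMA, which corrects background, quantile normalizes and summarises probes, and GCOS are named in the submitters' processing notes without versions, and no source used here gives the chip definition. Of 45101 probe sets, 64 are controls, 34945 carry 1 gene symbol, 932 several and 9160 none. For each of 18193 genes the brightest probe set on average across the 8 arrays was used, and 9010 genes had more than 1 to choose from. One linear model with 4 group means was fitted to the log2 values with limma 3.58.1 in R 4.3.3 (4 residual and 6.87 prior degrees of freedom), and each contrast was adjusted by Benjamini-Hochberg at 0.05. All adjusted p-values are from that fit unless an alternative is named. Array number, not read depth, limits the precision.

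The naming rule took, per class, the largest interactions, up to 4 called members per list, and a fixed set of genes, of which 23 of 24 were measured, 142 genes in all. Predicted genes were counted and not named. Any other gene named was picked with its values in view. The members and the lists, 29 of pathways, 10 of cell type markers and 1 of reference genes (694 of 772 entries measured), were chosen with earlier results of these data known. Same-numbered arrays did not deviate together (r -0.12 to 0.10), so replicate numbers were not treated as pairs. The scripts were tested on simulated data. Alternatives covered scaling, the probe set per gene, the filter on low values, the variance model, the class rule, a minimum size, a replicate block and each array left out.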

Additional observations from a re-analysis of the deposited data

Results flagged for a closer look

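For 134 genes the LPS response differed between the genotypes by the test of the difference itself (limma, Benjamini-Hochberg adjusted p under 0.05), which is why each is given here with its interaction on the log2 scale. Groups of 2 arrays are too small for a check of single outlying arrays. Not all of these calls were firm: 44 were lost under at least 1 alternative and 27 under more than 3.

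Lost rises were Slc39a14 (-3.35), Flrt3 (-2.86), Tnc (-2.84), Csf3 (-2.66), Sema4c (-2.63), Cebpd (-2.40), Zfp36 (-1.48), Il4ra (-1.42), Ccr3 (-1.40) and Cmklr1 (-1.31). Those of smaller size were Cysltr1 (-1.30), Gsr (-0.99) and Trem1 (-0.80). Lost falls were Calhm2 (1.87), Fam53b (1.66), Mrtfa (1.63), Gemin2 (1.55), Galnt10 (1.54), Mertk (0.89), Rps6ka5 (0.87) and Mvd (0.79).

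Weakened rises were Hcar2 (-4.16), Olr1 (-3.59), Il1a (-3.53), Ccl7 (-3.41), Serpinb2 (-3.33), Il10 (-2.82), Il1b (-2.66), Ccnd2 (-2.39), Marco (-2.29) and Ccl2 (-2.24). Those of smaller size were Tnfsf4 (-2.04), Gpr84 (-1.79), Timp1 (-1.62), Vegfc (-1.53), Pla2g4a (-1.44), Dusp1 (-1.41), Irak3 (-1.41), Ptx3 (-1.40), Cxcl3 (-1.33) and Zc3h12a (-1.24). After them came Slc7a11 (-1.15), Msr1 (-1.08), Tnip1 (-0.99), Slc2a1 (-0.99), Cmpk2 (-0.98), Oasl1 (-0.93), Zc3h12c (-0.91), Cd69 (-0.91), Gbp2 (-0.90) and S100a8 (-0.81). Next were Rsad2 (-0.72) and Pfkfb3 (-0.60). Weakened falls were Cdc42ep3 (2.64), Rnf144b (2.09), N4bp2l1 (1.83), Cxcr4 (1.68), Sdhaf1 (1.58), Gpr183 (1.51), Ptger3 (0.90), Vegfb (0.88), Abcg1 (0.86) and Cxcr3 (0.79). Next were Kit (0.75), Dhcr7 (0.73), Irf3 (0.55) and Ebp (0.54).

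Rises of wild type that became falls were Zfp658 (-3.40), Hmox1 (-3.01), Ccr1 (-2.88), Snord89 (-2.87), Flrt2 (-2.81), Plaur (-2.55), Egr1 (-2.54), Maf (-2.14), Ifnar1 (-2.06) and Tlr8 (-1.52). Those of smaller size were Arg2 (-1.16), C3ar1 (-0.78) and Tirap (-0.78). Falls that became rises were Arhgap22 (3.09), Mylip (2.30), Ciita (1.77), Ptger4 (1.39), Tgfb3 (1.35) and Pmvk (0.60).

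Falls that went deeper without Tpl2 were Cd300lb (-4.46), Dusp6 (-3.47), Ptger2 (-3.29), Fos (-2.74), Cyth4 (-2.35), Zfp36l2 (-1.68), Tlr4 (-1.53), Fli1 (-1.51), Mapk14 (-1.37) and Havcr2 (-1.29). Those of smaller size were Treml1 (-1.27), Was (-1.05), Pdgfa (-1.02), Cebpa (-0.90), Cd300lf (-0.88), Wasf2 (-0.83), Cdt1 (-0.82), Map2k3 (-0.80), Srxn1 (-0.69) and Clec7a (-0.57). Rises that went higher without Tpl2 were Plat (2.80), Gem (2.55), Foxl2os (2.50), Ifnb1 (2.49), Rras2 (2.41), Icosl (1.56), Ebi3 (1.42), Acp5 (1.15), Il12b (1.01) and Adm (0.96). Next were Ikbkb (0.94), Traf1 (0.84), Gadd45b (0.83), Cxcl11 (0.78), Irf1 (0.64) and Itga4 (0.57).

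Falls seen to pass only without Tpl2 were Id1 (-3.27), Stk17b (-2.82), Dusp4 (-2.72), Pik3cg (-2.16), Fam111a (-2.14), Ccnd1 (-1.39), Abca1 (-0.79), Fcgr3 (-0.77) and Ccr2 (-0.71). Rises seen to pass only without Tpl2 were Socs2 (2.99), Efna2 (2.87) and Tex15 (2.53).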

How the results depend on the processing

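Of 142 named genes, 134 were called, 90 of these under every alternative run, and 44 lost the call under at least 1. Of the 134, 27 lost it under more than 3. The call held under only 8 of 20 alternatives for Itga4 and Irf3. It held under 9 of 20 for Mvd, 9 of 19 for Clec7a and 12 of 19 for Irf1. Using the second probe set, for genes that have one, 545 genes were called (309 higher, 236 lower), with 131 lost, 156 weakened, 46 reversed, 133 strengthened, 79 gained and 318 kept, from fewer genes tested. Centring on spike-ins gave 1022 calls (535 higher), with 185 lost and 322 weakened. Requiring at least 2-fold left 461 calls (232 higher, 229 lower), with 68, 119, 75, 132 and 67 in the lost, weakened, reversed, strengthened and gained classes. Classes by size alone gave 255 reversed. Leaving out each array in turn gave 756 to 2565 calls, 406 to 1691 higher and 314 to 921 lower, with 131 to 724 lost, 211 to 823 weakened, 75 to 216 reversed, 167 to 586 strengthened, 121 to 357 gained and 539 to 1049 kept. The lone array was then assumed to vary like the other groups. The sign turned for Cxcl1 without probe sets that may cross-hybridise (1.22), and for Ikbkb (-0.45) and Ptger3 (-0.19) by the second probe set. Interactions that did not pass also crossed 0, to at most 0.20 for Ptgs2 and 0.13 for Map3k8. With the replicate block, 1454 genes were called (955 higher, 499 lower), 1396 of them shared, and the labels' numbers do not pair the samples. Except where a construction is named, the cause was not tested. With 2 arrays a group, small interactions could not be resolved, and levels under the array medians were not shown to be above background.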

Other observations

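Lists outside the comparisons above also held called genes, where 8.59% of all genes were called. Of 18 growth factors, 2 were lower and 2 higher (22.2%). The lymphatic growth factor Vegfc (-1.53 ± 0.20) was weakened and Pdgfa (-1.02 ± 0.16) fell further without Tpl2. Vegfb (0.88 ± 0.15) fell less, and Tgfb3 (1.35 ± 0.24) reversed. Of 19 glycolysis and HIF-1 genes, 2 were lower and 1 was higher (15.8%). The glucose transporter Slc2a1 (-0.99 ± 0.18) and Pfkfb3 (-0.60 ± 0.15) were weakened and the vasoactive peptide gene Adm (0.96 ± 0.25) was strengthened. The calls of Pfkfb3 and Adm were lost under 10 and 7 alternatives. By the second probe set Adm was at 1.89 and Pdgfa at -0.64. Among 15 macrophage markers the scavenger receptor Msr1 (-1.08 ± 0.14) and the Fc receptor Fcgr3 (-0.77 ± 0.14) were lower and Mertk (0.89 ± 0.20) was higher (20% called). Of the markers of other cells, S100a8 of neutrophils (-0.81 ± 0.19), Kit of mast cells and progenitors (0.75 ± 0.17) and Acp5 of osteoclasts (1.15 ± 0.17) passed. Each was the only call of its list, 7.69% of neutrophil, 12.5% of mast cell, 14.3% of progenitor and 10% of osteoclast markers. The call of Kit was lost under 7 alternatives. Of the B cell, T and NK cell, dendritic cell, erythroid and stromal markers 0 passed, with 0, 0, 2, 0 and 1 at an unadjusted p under 0.05.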
